A study of Rattus norvegicus with 6 samples.

Results

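Matrix metalloproteinases, the related ADAMTS proteases and the tissue inhibitors that block them were followed in the mesenterial fat of newborn rats whose dams were fed with or without vitamin D. The group was chosen by gene name: 10 genes, of which 7 encode proteases (Mmp2, Mmp9, Mmp11, Mmp14, Mmp23, Adamts1 and Adamts5) and 3 encode inhibitors (Timp1, Timp2 and Timp3). A probe set, the group of short probes that reads a transcript on this type of array, was included when the platform annotation gives it exactly 1 symbol and that symbol is in the list. This found 20 of the 31042 probe sets that are not controls. All 10 genes had at least 1, of 14217 genes that the annotation names in this way.

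The animals were wild-type Sprague-Dawley rats, an outbred laboratory strain, and the tissue was the fat that lies in the folds carrying the vessels of the gut. In the adequate group the dams' feed held 1000 IU of vitamin D per kg, and in the deficient group 0 IU per kg. Each group had 3 Affymetrix expression arrays of total RNA. Neither litter nor sex is labelled, and it is not stated that each array is a separate animal. The p-values therefore measure the spread between arrays, part of which may be technical.

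Matrix metalloproteinases are zinc enzymes that cut collagens, gelatin, proteoglycans and other matrix proteins. They are made with a propeptide that keeps them inactive until it is removed, either outside the cell or, in some members, by furin on the way to the surface. TIMP proteins bind the active site and hold the enzymes in check, and the ADAMTS proteases cut large proteoglycans such as versican and aggrecan. In growing fat, remodelling of the collagen network around the cells is known to depend on Mmp14, which sits in the plasma membrane and, with Timp2 as an adaptor, activates pro-Mmp2.

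Promoter windows were available for 6 of the 10 genes in RefSeq's sequence table (build GRCr8), each reaching from 250 bases before to 50 bases after the gene's start. Those of Mmp11 (chr20:12730034-12730333, plus strand) and Mmp23 (chr5:171524485-171524784, minus strand) are shown because of their brightest probe sets. These read below every adequate array on each deficient array. Timp3 (chr7:19459509-19459808, minus strand) is shown as the inhibitor with a higher probe set, and Adamts1 (chr11:38427335-38427634, minus strand) because it was high on only some deficient arrays. They are written 5′ to 3′ on the strand of the gene, and capitals mark GC boxes (GGGCGG on either strand) and, in Adamts1 alone of the 6, a TATA box (TATAAA).
Mmp11: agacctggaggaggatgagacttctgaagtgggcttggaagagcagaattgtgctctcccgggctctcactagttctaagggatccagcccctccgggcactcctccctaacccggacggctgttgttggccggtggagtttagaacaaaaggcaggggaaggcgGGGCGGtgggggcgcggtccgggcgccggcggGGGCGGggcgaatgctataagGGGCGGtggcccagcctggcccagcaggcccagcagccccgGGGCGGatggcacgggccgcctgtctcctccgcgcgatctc
Mmp23: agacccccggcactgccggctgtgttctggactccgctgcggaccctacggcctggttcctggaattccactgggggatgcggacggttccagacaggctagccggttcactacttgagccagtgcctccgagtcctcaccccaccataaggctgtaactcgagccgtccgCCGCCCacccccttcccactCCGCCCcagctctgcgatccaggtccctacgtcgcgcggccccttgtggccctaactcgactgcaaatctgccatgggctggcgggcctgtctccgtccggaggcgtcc
Timp3: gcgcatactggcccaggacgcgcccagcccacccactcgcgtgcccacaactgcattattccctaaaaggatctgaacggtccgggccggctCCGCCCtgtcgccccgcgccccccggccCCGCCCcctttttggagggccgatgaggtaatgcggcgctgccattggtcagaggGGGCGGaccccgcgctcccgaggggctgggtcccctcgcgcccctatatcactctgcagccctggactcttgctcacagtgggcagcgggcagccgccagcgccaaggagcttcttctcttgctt
Adamts1: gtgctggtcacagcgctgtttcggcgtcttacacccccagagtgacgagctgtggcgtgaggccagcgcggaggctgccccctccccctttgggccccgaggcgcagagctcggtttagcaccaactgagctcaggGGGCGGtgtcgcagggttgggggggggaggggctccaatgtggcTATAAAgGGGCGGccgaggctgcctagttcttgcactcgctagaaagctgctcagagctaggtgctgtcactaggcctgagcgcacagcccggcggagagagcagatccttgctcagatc

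The GC box was present in 6 of the 6 promoters, with 4 copies in Mmp11, 3 in Timp3, 2 in Mmp23 and in Adamts1, and 1 in Timp1 and in Timp2. Of all 33469 promoter windows of the same length, 33.1% held it. These promoters were also rich in G and C, with 68.0% in Mmp11 and 61.3% in Timp1, the lowest of the 6, against a median of 51.7% over all windows. The TATA box, found in 14.2% of all windows, began at position -70 from the start of Adamts1 and did not overlap the GC box beside it. The AP-1 motif TGANTCA (7.33% of all windows) and the nuclear receptor core motif AGGTCA (16.2%) had no match in the 6 windows on either strand. Matches are a description of these letters and were not set against the diet.

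The arrays were not alike, and the part of these differences in the members' values was not tested. Deficient arrays 1 and 2 lay at 43.1 and 46.4 on the first principal component (49.5% of the variance), and the other 4 arrays between -26.2 and -18.5. The spiked bacterial hybridisation controls of this pair read 7.43 and 10.8 times the adequate mean, where deficient array 3 read 0.946 times. For beta-actin the signal at the 3′ end over that at the 5′ end, which rises as RNA is degraded or labelled less far, was 7.56 and 6.80 there, against 2.35 to 4.81 on the other 4 arrays. The same ratio for GAPDH set the pair apart less, at 1.71 and 1.36 on deficient arrays 1 and 2 against 1.09 to 1.30 on the others. The brightest probe set that is no control read 72847 and 89956 intensity units on deficient arrays 1 and 2 and between 24568 and 28658 on the others. The members' changes are therefore given for deficient array 3 on its own as well. Of 10 adipocyte markers, Adipoq, Plin1, Cidec, Lep and Pparg lay below the brightness filter described next, while Fabp4 read between 1581 and 2821, so the labelled tissue was only in part borne out by its defining markers. Fewer cells of a type and less RNA per cell cannot be told apart in such bulk RNA.

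Probe sets were tested when their mean log2 signal over the 6 arrays was at least 6.46 (a signal of 88.2), the 40th percentile, which kept 18625 probe sets in all. Of the members, 17 of 20 probe sets were bright enough, and every gene kept at least 1. The probe sets left out were 1 each of Mmp2, Mmp9 and Timp3. Signals of different probe sets depend on their probes, so the signals below show brightness on each array and give no order of transcript levels between genes.

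**Figure D1:**
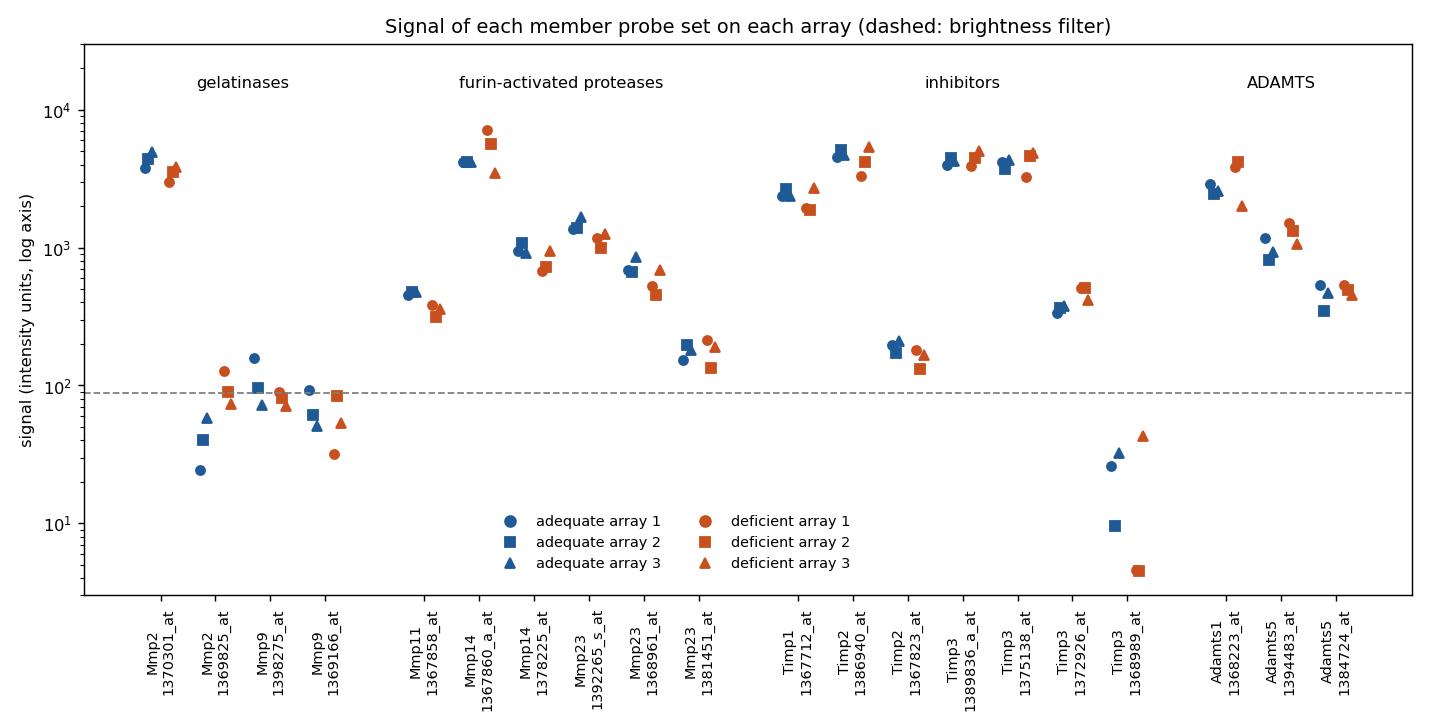
Signal in intensity units (log axis) of the 20 member probe sets on each of the 6 arrays, with adequate arrays in blue and deficient arrays in orange. The dashed line is the filter at 88.2, and 17 probe sets have a mean log2 signal above it; Mmp14 1367860_a_at reads between 4148 and 4197 on the adequate arrays and between 3479 and 7085 on the deficient arrays.

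None of the member probe sets passed. With limma, adjusted over all 18625 tested probe sets, 0 of 17 had an adjusted p under 0.05, where 0% of all tested probe sets did, and the members' adjusted p ranged from 0.344 to 0.996. At an unadjusted p under 0.05 there were 3 of 17 (17.6%), 1 higher and 2 lower, against 14.2% of all tested probe sets (6.03% higher and 8.18% lower). The same 3 had groups that did not overlap, against 17.4% of all tested probe sets (6.55% higher and 10.8% lower). Both counts were near the background. In value, 7 were higher and 10 lower in the deficient group, with a median log2 change of -0.19, against -0.05 over all tested probe sets. The log2 changes lay between -0.42 and 0.42, with standard errors from 0.16 to 0.32.

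Leaving out deficient array 3 changed this count more than any other array did. Then 6 of 17 member probe sets passed, 3 higher and 3 lower, where 19.4% of all tested probe sets passed (8.78% higher and 10.6% lower). They were Mmp14 with its 2 probe sets in opposite directions, 1 probe set of Mmp23 and Timp1, which were lower, and Adamts1 and 1 probe set of Adamts5, which were higher. The pair of deficient arrays left in that comparison is the pair that stood apart in hybridisation controls and the beta-actin ratio, and less so in the GAPDH ratio. With deficient array 3 alone against the adequate arrays 0 members passed, where 0% of all probe sets did. A covariate for the hybridisation controls also left the count at 0, again with 0% of all probe sets. The controls were high on deficient arrays 1 and 2 alone, so the diet difference then rested mainly on deficient array 3. That fit is therefore no separate check. With array weights, which let limma count arrays far from their group's mean for less, 1 member passed, lower. Of all tested probe sets 18.6% passed (8.14% higher and 10.4% lower), close to the 19.4% without deficient array 3. Which array lost weight was not recorded. Over the 17 tested probe sets, 11 were outside the adequate range in the same direction on deficient arrays 1 and 2, and 3 of these were so on deficient array 3 as well. Over all tested probe sets the shares were 51.8% and 17.4%.

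**Figure D2:**
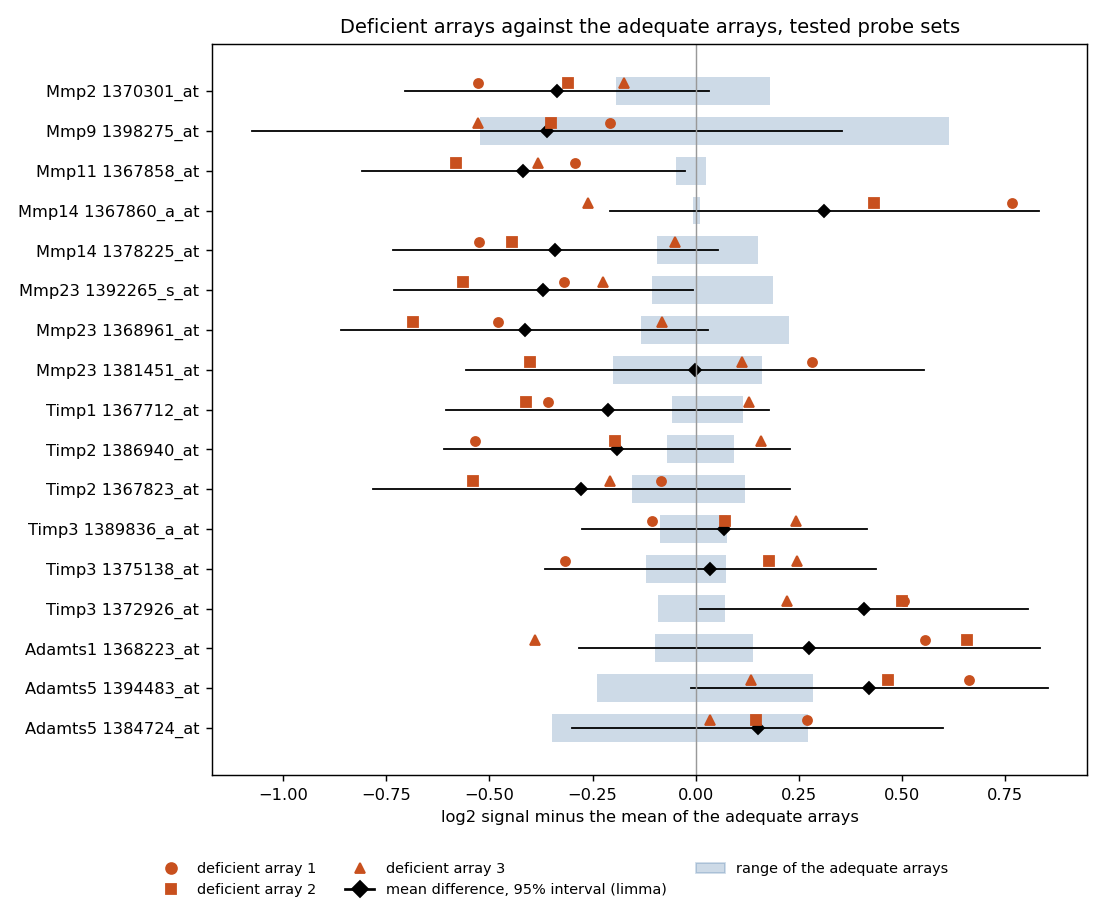
Log2 signal of each deficient array (orange symbols) minus the adequate mean for the 17 tested probe sets, with the mean difference and its 95% interval from limma (black) and the range of the adequate arrays (blue band). The symbols of deficient array 3 (triangles) lie apart from the others in Mmp14 1367860_a_at, at -0.26 against 0.76 and 0.43, and in Adamts1, at -0.39 against 0.56 and 0.66.

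Among the gelatinases, which cut denatured collagen and basement membrane, Mmp2 had lower values in the deficient group with its bright probe set. Its probe set 1370301_at read 3799, 4386 and 4922 intensity units on adequate arrays 1 to 3 and 3015, 3508 and 3850 on deficient arrays 1 to 3. All adequate arrays but the lowest were above all deficient arrays, and deficient array 3 lay within the adequate range, so the groups overlapped. The log2 signal was 12.09 ± 0.19 with the adequate and 11.75 ± 0.18 with the deficient diet (SD, n = 3 each). The log2 change was -0.34 (95% interval -0.71 to 0.03), a fold of 0.792, and did not pass in limma (adjusted p = 0.366). It was -0.17 with deficient array 3 alone. The other Mmp2 probe set, 1369825_at, was dim and not tested, and its values ran the other way, with 24.3, 40.5 and 57.9 on the adequate and 127, 90.4 and 73.5 on the deficient arrays.

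Mmp9, the gelatinase stored in neutrophil granules and also made by macrophages, was close to the filter. The tested probe set 1398275_at read 157, 96.6 and 71.6 on the adequate and 89.1, 80.7 and 71.4 on the deficient arrays. The deficient values were within or just under the adequate range, in which adequate array 1 was high. The log2 change of -0.36 had a 95% interval of -1.08 to 0.35 (limma, adjusted p = 0.582), so a change of either sign is within the error. It was -0.53 with deficient array 3 alone and -0.62 without adequate array 3, and without adequate array 1 the probe set fell below the filter and was not tested. The untested probe set 1369166_at read between 50.9 and 93.2 on the adequate and between 31.7 and 83.7 on the deficient arrays. Neutrophil markers had a summed signal of 2699 to 2708 in the adequate and 2272 to 2475 in the deficient group, over 6 of 10 markers with a probe set, of which Camp and Csf3r were below the filter. Not every marker was lower: S100a9, the brightest, read 1226, 1246 and 1096 on the deficient arrays, within its adequate range of 1031 to 1314. S100a8, at 680, 760 and 556, lay on both sides of its range of 630 to 707. Lcn2 was lower on deficient arrays 1 and 2 (171 and 103 against 316 to 416), but not on deficient array 3 (356). For 10 of 10 macrophage markers the sum was 7921 to 9131 and 5686 to 8533, the latter highest on deficient array 3. On deficient arrays 1 and 2 Adgre1 was higher, at 296 and 288 against 189 to 286 on the adequate arrays. Cd163 was within its adequate range on this pair, and the other macrophage markers were lower. The part of these cells in the Mmp9 values was not tested.

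Mmp11 and Mmp23, both activated by furin, were the genes whose brightest probe set read below every adequate array on each deficient array. Mmp11, stromelysin-3, is a secreted enzyme of stromal cells that is released already active and is known to cut collagen VI. Its only probe set read 451, 475 and 475 on the adequate and 381, 312 and 358 on the deficient arrays. Every deficient array was below every adequate array, and the adequate arrays were within 0.04 of each other in SD on the log2 scale. The log2 change was -0.42 ± 0.18 (SE), a fold of 0.748, with a 95% interval of -0.81 to -0.03, and it did not pass (limma, unadjusted p = 0.038, adjusted p = 0.344). With deficient array 3 alone it was -0.38, and between -0.48 and -0.34 when any 1 array was left out.

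Mmp23 is a small protease held in the membrane by its propeptide until furin cuts it free. Probe set 1392265_s_at read 1369.6, 1394 and 1679 on the adequate and 1182, 998 and 1262 on the deficient arrays. No deficient array reached the lowest adequate array. Its log2 change was -0.37 ± 0.16 (SE), a fold of 0.774, with a 95% interval of -0.73 to -0.01 (limma, unadjusted p = 0.046, adjusted p = 0.350). Probe set 1368961_at read 688, 669.5 and 858 against 526, 457 and 694, where deficient array 3 was within the adequate range, and had a log2 change of -0.41 (adjusted p = 0.363). The dimmest, 1381451_at, read 154, 198 and 182 against 215, 134 and 191 and had no shared direction, with a log2 change of -0.003 and a 95% interval of -0.56 to 0.55. Probe sets 1381451_at and 1392265_s_at are annotated to the same expressed sequence tag, so the 3 are not independent. The changes with deficient array 3 alone were -0.22 and -0.08 for the brighter pair and 0.11 for the dimmest.

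Mmp14 gave opposite answers by probe set. This membrane-bound collagenase activates pro-Mmp2 and clears collagen around the cell. Probe set 1367860_a_at read 4165, 4148 and 4197 on the adequate arrays, an SD of 0.01 on the log2 scale, and 7085, 5622 and 3479 on the deficient arrays. The first and second deficient arrays were above all adequate arrays and the third was below them. The mean log2 change was 0.31 (95% interval -0.21 to 0.83; limma, adjusted p = 0.511). It was 0.17 after quantile normalization, -0.26 with deficient array 3 alone and -0.19 with a covariate for the hybridisation controls.

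Probe set 1378225_at of the same gene read 944, 1087 and 918 on the adequate and 681, 719.7 and 946 on the deficient arrays. Here deficient arrays 1 and 2 were low and deficient array 3 was within the adequate range. The log2 change was -0.34 (95% interval -0.73 to 0.05; adjusted p = 0.379), and -0.05 with deficient array 3 alone. The log2 difference between the probe sets, set to 0 at the adequate mean, stayed between -0.16 and 0.10 on the adequate arrays and was 1.29, 0.88 and -0.21 on the deficient arrays. With the mean of the 2 probe sets the log2 change of Mmp14 was -0.01 ± 0.14 (SE; limma, adjusted p = 0.968). No direction can be given for Mmp14 as a gene.

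**Figure D3:**
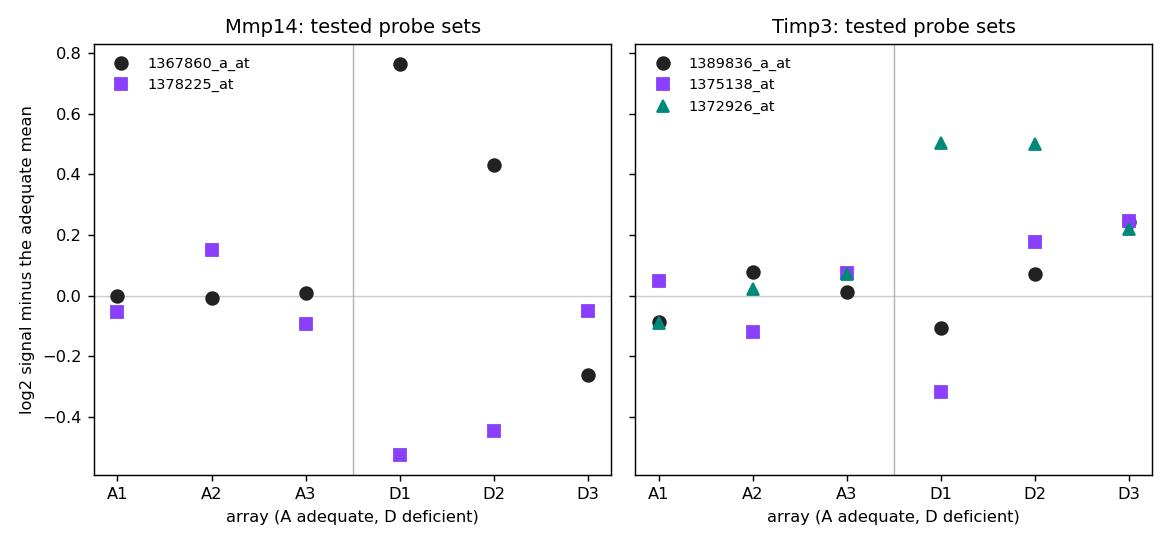
Log2 signal minus the adequate mean on each array for the tested probe sets of Mmp14 (left) and Timp3 (right). On deficient arrays 1 and 2 the Mmp14 probe sets part, at 0.76 and 0.43 for 1367860_a_at against -0.53 and -0.45 for 1378225_at, and for Timp3 only 1372926_at lies near 0.50 on both of these arrays.

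The inhibitors showed no shared direction. Timp1, a secreted inhibitor that also binds pro-Mmp9, read 2384, 2683 and 2379 on the adequate and 1933, 1863 and 2709.6 on the deficient arrays. Deficient arrays 1 and 2 were below the adequate range and deficient array 3 was above it. The log2 signal was 11.27 ± 0.10 and 11.06 ± 0.30 (SD, n = 3 each), a change of -0.21 (95% interval -0.61 to 0.18; limma, adjusted p = 0.550). With deficient array 3 alone it was 0.13.

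Timp2, the inhibitor that also links Mmp14 to pro-Mmp2, had the same split. Its brighter probe set, 1386940_at, read 4570.3, 5118 and 4731 on the adequate and 3312, 4188 and 5357 on the deficient arrays, with deficient arrays 1 and 2 below and deficient array 3 above the adequate range. The log2 change was -0.19 (95% interval -0.61 to 0.23; adjusted p = 0.621), and 0.16 with deficient array 3 alone. The dimmer probe set, 1367823_at, read 197, 173 and 209 against 182, 133 and 167. There deficient array 1 was within the adequate range and the others below it, and the change was -0.28 (95% interval -0.78 to 0.23; adjusted p = 0.548), or -0.21 with deficient array 3 alone.

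Timp3, the inhibitor that stays bound to the matrix and is known to block ADAMTS proteases as well as metalloproteinases, had 3 tested probe sets. The brightest, 1389836_a_at, read 3981, 4459.7 and 4262 on the adequate and 3928, 4444 and 5006 on the deficient arrays. The groups overlapped, and the log2 change was 0.07, with a 95% interval of -0.27 to 0.41 (adjusted p = 0.841). Probe set 1375138_at, at 4208, 3748 and 4287 against 3271, 4608 and 4828, also overlapped, with a change of 0.04 (95% interval -0.37 to 0.44). The sign of these 2 small changes turned after quantile normalization, to -0.025 and -0.050.

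The dimmer Timp3 probe set 1372926_at was the only tested member above every adequate array on each deficient array. It read 337, 364 and 377 on the adequate and 509, 507 and 418 on the deficient arrays. Its log2 change was 0.41 ± 0.18 (SE), a fold of 1.33, with a 95% interval of 0.01 to 0.81 (limma, unadjusted p = 0.045, adjusted p = 0.348). With deficient array 3 alone the change was 0.22, close to the 0.24 and 0.25 of the brighter pair of probe sets on that array. On deficient arrays 1 and 2 it stood at 0.50 and 0.50, whereas the brightest was at -0.11 and 0.07. The last probe set, 1368989_at, was far below the filter, at 9.50 to 32.2 on the adequate and 4.51 to 43.2 on the deficient arrays.

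The ADAMTS proteases had higher mean values in the deficient group, which came mainly from deficient arrays 1 and 2. On deficient array 3 Adamts1 was low and Adamts5 was within its adequate range. Adamts1, which cuts versican and aggrecan, read 2898, 2458 and 2557 on the adequate and 3868, 4151 and 2009 on the deficient arrays. The split was the same as for Mmp14 1367860_a_at, with deficient array 3 below the adequate range and the others above it. The mean log2 change was 0.27 (95% interval -0.28 to 0.83; limma, adjusted p = 0.594), against -0.39 with deficient array 3 alone and -0.31 under the hybridisation covariate.

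Adamts5, a main aggrecanase, read 1170.0, 814 and 933 on the adequate and 1521, 1327 and 1054 on the deficient arrays with probe set 1394483_at. Deficient arrays 1 and 2 were above the adequate range and deficient array 3 was within it. The log2 change was 0.42 ± 0.19 (SE), a fold of 1.34, with a 95% interval of -0.01 to 0.85 (adjusted p = 0.354), and 0.13 with deficient array 3 alone. With probe set 1384724_at, which read 534, 348 and 467 against 534, 489.6 and 453, all deficient arrays were within the adequate range and the change was 0.15 (95% interval -0.30 to 0.60), or 0.03 with deficient array 3 alone.

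The arrays on which Mmp14 1367860_a_at, Adamts1 and Adamts5 1394483_at were high also had larger summed signals of stromal and smooth muscle markers, though not of every marker. The summed signal of 10 of 10 fibroblast and progenitor markers was 150049 and 149171 on deficient arrays 1 and 2, 73421 on deficient array 3 and 70330 to 83633 on the adequate arrays. That of 6 of 6 smooth muscle markers was 106141 and 110939, against 70811 and 56290 to 68624. Within that list Des was lower on this pair, at 4946 and 3961 against 5586 to 6550 on the adequate arrays, and Acta2, at 4125 and 4668, was within the adequate range of 4052 to 6139. These sums are led by a few very bright genes: the collagen gene Col3a1 read 54863 and 57459 on deficient arrays 1 and 2 and between 21264 and 24704 on the other arrays, while the fibroblast surface marker Thy1 was lower, at 471 and 348 against 684 to 1062 on the others, and Pdgfrb, Dlk1 and Pi16 were not above the adequate range on either array. Endothelial markers summed to 12045 to 12360 in the adequate and 10528 to 11089 in the deficient group (9 of 10 with a probe set). Within that list Pecam1 was higher on deficient arrays 1 and 2, at 1760 and 1463 against 1069 to 1360 on the adequate arrays. Flt1 was too, at 223 and 247 against 131 to 217, while Tie1, Vwf, Esam and Emcn were lower there. Mast cell markers summed to 4101 to 4873 in the adequate group and to 2794, 3335 and 4449 on deficient arrays 1 to 3 (6 of 6, Kit below the filter). Deficient array 3 was within the adequate range, and Fcer1a was not below its own range on deficient arrays 1 and 2. Mesothelial markers summed to 8317 to 9279 in the adequate group and to 7633, 6550 and 8849 on deficient arrays 1 to 3 (6 of 7). Here too deficient array 3 was within the adequate range, and Lrrn4 was above its own range on deficient array 1. Adipocyte markers summed to 4652 to 5039 in the adequate and 3713 to 6028 in the deficient group, highest on deficient array 3. No defining marker was listed at 0, but Cidec read only 2.05 to 8.20 and Lep 2.85 to 7.15, far below the filter. The part of cell makeup, labelling and RNA quality in the members' values was not tested.

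Set against each other within an array, proteases and inhibitors had no shift that all deficient arrays shared. Taking the brightest probe set of each gene and the adequate mean as 0, the 7 protease genes had a mean log2 deviation of 0.09, -0.04 and -0.26 on deficient arrays 1 to 3, and the 3 inhibitor genes -0.33, -0.18 and 0.18. Proteases minus inhibitors was 0.42, 0.14 and -0.44 on these arrays and 0.17, -0.16 and -0.01 on the adequate arrays. Deficient array 1 lay above the adequate arrays, deficient array 3 below them and deficient array 2 among them, and the deficient mean was 0.04. Within the proteases, the 5 Mmp genes averaged -0.12, -0.27 and -0.31 on the deficient arrays, and the 2 ADAMTS genes 0.61, 0.56 and -0.13. These averages are descriptions and were not tested.

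Of 5 textbook pairs of protease and inhibitor, none passed in the comparison of the diets by the exact two-sided permutation test, which cannot go below p = 0.1 with this number of arrays. The log2 ratio of Mmp14 over Timp2, set to 0 at the adequate mean, was 0.07, -0.10 and 0.03 on the adequate and 1.30, 0.63 and -0.42 on the deficient arrays. Its mean was 0.50 (exact p = 0.4, adjusted over the 5 pairs 0.833), or 0.10 without deficient array 1 and 0.96 without deficient array 3, and with the other Mmp14 probe set it was -0.15 (exact p = 0.2). Mmp2 over Timp2 was -0.12, -0.08 and 0.20 on the adequate and 0.01, -0.11 and -0.33 on the deficient arrays, a mean of -0.15 (exact p = 0.5, adjusted 0.833). Here both genes were lower on deficient arrays 1 and 2, and their ratio stayed within the adequate range there, and only deficient array 3 was outside it.

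The remaining pairs also overlapped. Adamts5 over Timp3 had deficient values of 0.77, 0.39 and -0.11, with a mean of 0.35 (exact p = 0.4, adjusted 0.833). Adamts1 over Timp3 had 0.66, 0.59 and -0.63, with a mean of 0.21 (exact p = 0.8, adjusted 0.900), and Mmp9 over Timp1 had 0.15, 0.06 and -0.66, with a mean of -0.15 (exact p = 0.9, adjusted 0.900). On deficient array 3 the ratio was below the adequate mean in each of the 5 pairs. For Adamts5 over Timp3 it was within the adequate range of -0.32 to 0.37. The brightest probe set of each inhibitor was above its adequate range on that array, while those of Mmp14, Mmp9 and Adamts1 were below theirs. A ratio within an array shows only that 2 probe sets changed unequally, and pairs that share Timp2 or Timp3 are not independent.

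**Figure D4:**
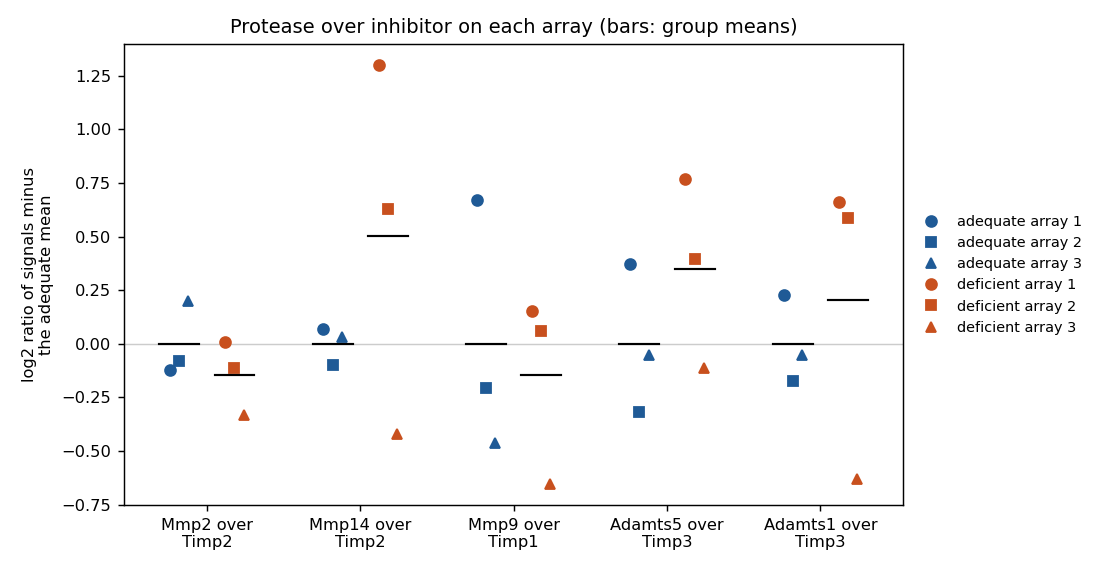
Log2 ratio of protease over inhibitor signal on each array minus the adequate mean, for 5 pairs, with adequate arrays in blue, deficient arrays in orange and black bars at the group means. For Mmp14 over Timp2, deficient arrays 1 and 2 lie above the adequate arrays (1.30 and 0.63). Deficient array 3 (triangles) lies below the adequate mean in all 5 pairs, though within the adequate range for Adamts5 over Timp3.

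Other genes of the same system were counted in 4 lists, each gene read by its brightest probe set in the test. Of 87 genes, 59 were tested, and 0 passed with limma. At an unadjusted p under 0.05, 4 were higher and 7 lower, where 6.03% and 8.18% of all tested probe sets were. The median log2 change over the 59 was 0.04, against -0.05 over all tested probe sets. Among other metalloproteinases and inhibitors, 6 of 18 were tested, 3 higher and 3 lower in value. Mmp24, a membrane-type protease, read 473, 336 and 451 on the adequate and 349.6, 187 and 249 on the deficient arrays, a change of -0.72 ± 0.26 (SE; adjusted p = 0.344). A2m, a broad protease trap of plasma, was high on deficient array 2 alone, at 3188, with the other 5 arrays between 421 and 674, and Mmp17 had a change of -0.15 ± 0.17.

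Among the other ADAM and ADAMTS proteases, 18 of 29 were tested, 8 higher and 10 lower in value, with a median change of -0.13. Adamts12 read 1348, 1282 and 1505 on the adequate and 1059, 975 and 1105 on the deficient arrays, with no overlap and a change of -0.40 ± 0.15 (SE; limma, adjusted p = 0.344). Adam19 was at -0.52 ± 0.21 and Adamts8 at 0.53 ± 0.21, each with overlap between the groups. Genes that activate or clear these proteases gave 16 tested of 20, 7 higher and 9 lower in value, and none had an unadjusted p under 0.05. The smallest p was that of the caveolin gene Cav1, at 0.29 ± 0.18, then the heparan sulfate proteoglycan Sdc4, at -0.28 ± 0.22, and the urokinase receptor Plaur, at -0.36 ± 0.29.

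The substrates were split. Of 20 matrix genes 19 were tested, 13 higher and 6 lower in value, with 3 higher and 4 lower at an unadjusted p under 0.05, where 6.03% and 8.18% of all tested probe sets were. The elastin gene Eln, cut by Mmp9 among others, read 4048, 4627 and 5305 on the adequate and 1969, 2129 and 3846 on the deficient arrays. The basement membrane collagen Col4a2, a gelatinase substrate, read 3007, 3263 and 2744 against 1453, 1994 and 2379, a change of -0.66 ± 0.19 (SE; limma, adjusted p = 0.344). Both were lower on each deficient array and lowest on deficient arrays 1 and 2. Nid1, the nidogen that links laminin to collagen IV, read 6796, 8241 and 7144 on the adequate and 23215, 21002 and 7456 on the deficient arrays, so it was high on deficient arrays 1 and 2 only (1.06 ± 0.36, adjusted p = 0.344).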

How the data were processed

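The deposited values are linear intensity signals, 1 per probe set and array, and made with MAS5 and Affymetrix Expression Console, per the submitters' processing notes, which give no version. On each array they average 500 once 2% at each end is trimmed, so the authors' scaling put all arrays on 1 level. The sources used here do not state background or detection settings.

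Of 31099 probe sets, 57 were controls and left out. There were 0 missing values and 0 identical columns. Signals were log2 transformed with no offset, filtered at the 40th percentile of the mean, and compared as deficient minus adequate by limma 3.58.1 (R 4.3.3; eBayes, trend on mean signal). The two-sided p-values were adjusted by Benjamini-Hochberg over the 18625 tested probe sets, with a threshold of 0.05. Pair ratios were compared by exact permutation tests (scipy 1.17.1). Symbols came from the platform annotation, and 10 of 10 member genes matched the GRCr8 gene table by Entrez identifier with the same symbol. Matplotlib 3.10.9 drew the figures.

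The members, lists and tests were chosen with earlier results of these data known. Every member probe set was reported, with up to 3 genes of smallest unadjusted p from each list of other genes. Marker genes given with values (Fabp4, Cidec, Lep, Col3a1, Thy1, Des, Acta2, S100a8, S100a9, Lcn2, Adgre1, Pecam1, Flt1) were named after their values were seen. Tested on simulated arrays (200 of 18625 probe sets changed), limma recovered 59% at a log2 change of 1 and 98% at 2. It made 12 false calls, and 0 where nothing was changed. The members' log2 changes, between -0.42 and 0.42, were smaller than both, so recovery at their size was not tested. Each simulated probe set got its own random scatter, without the split among the deficient arrays. These rates therefore cannot be carried over to the real arrays. Precision is limited by the number of arrays. Settings tried besides were the scaling (quantile, median), the filter (none, 60th percentile), an offset of 50, the variance model, array weights, a replicate block, covariates and leaving arrays out.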

Additional observations from a re-analysis of the deposited data

Results flagged for a closer look

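The Mmp2 probe set 1369825_at, which was too dim to enter the test, read higher on each deficient array than on any adequate array. Its log2 signal was 5.27 ± 0.63 with the adequate and 6.56 ± 0.40 with the deficient diet (SD, n = 3 each), a difference of 1.29. The adequate arrays and deficient array 3 (6.20) are under the filter at 6.46, and deficient array 2 (6.50) is just above it. With signals this dim, the difference is not taken as a measured size of change. The brighter Mmp2 probe set had a log2 change of -0.34. Without the filter the adjusted p of the dim probe set in limma was 0.440.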

How the results depend on the processing

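With array weights 3462 of all probe sets and 1 of the member probe sets (Mmp23 1368961_at, -0.54) passed in limma. Leaving out 1 array in turn gave 0 to 3618 of all probe sets, 0 to 6 of the member probe sets and 0 to 4 of the member genes, each at its highest without deficient array 3 and at 0 without any other array. The log2 changes that passed without deficient array 3 were 0.60 (Mmp14 1367860_a_at), -0.49 (Mmp14 1378225_at), -0.58 (Mmp23 1368961_at), -0.39 (Timp1), 0.61 (Adamts1) and 0.56 (Adamts5 1394483_at). The other 11 alternatives in limma, which kept all arrays or used deficient array 3 alone, called 0 members, with 0 to 5 at an unadjusted p under 0.05. Averaging the probe sets per gene also called 0 member genes, with 1 at an unadjusted p under 0.05.

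Some signs turned. With deficient array 3 alone they did for Mmp14 1367860_a_at (-0.26), Timp1 (0.13), Timp2 1386940_at (0.16), Adamts1 (-0.39) and Mmp23 1381451_at (0.11), and for the ratios of Mmp14 over Timp2 (-0.42), Adamts5 over Timp3 (-0.11) and Adamts1 over Timp3 (-0.63). With the hybridisation covariate the same 5 probe sets turned, to -0.19, 0.090, 0.088, -0.31 and 0.12. That covariate sets deficient arrays 1 and 2 apart, so this nearly repeats the comparison with deficient array 3 alone. With the beta-actin ratio Adamts1 was at -5.6e-05. Quantile normalization turned Timp3 1389836_a_at (-0.025) and 1375138_at (-0.050) and Mmp23 1381451_at (0.013), which was also at 0.0086 after median centring and 0.0016 with the offset. Array weights turned Timp3 1375138_at (-0.0099). When 1 array was left out, Mmp23 1381451_at ranged from -0.15 to 0.20, Timp3 1389836_a_at from -0.018 to 0.16, Timp3 1375138_at from -0.070 to 0.21 and Adamts5 1384724_at from -0.025 to 0.28. The ratio of Mmp9 over Timp1 ranged from -0.38 to 0.19, Adamts1 over Timp3 from -0.023 to 0.62, Mmp14 over Timp2 from 0.10 to 0.96, Adamts5 over Timp3 from 0.14 to 0.58 and Mmp2 over Timp2 from -0.22 to -0.045. The cause of these turns was not tested.

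An alternative chosen after the data were seen took the other 11 combinations of tested probe sets for the pairs, and 4 had the other sign. They were Mmp14 1378225_at over Timp2 1386940_at (-0.15) and over 1367823_at (-0.064), Adamts5 1384724_at over Timp3 1372926_at (-0.26) and Adamts1 over Timp3 1372926_at (-0.13). With the replicate number as a block, 0 of all probe sets and 0 of the members passed, with a smallest adjusted p of 0.235, and the Mmp14 over Timp2 ratio had an exact p of 0.5. Deviations of same-numbered arrays correlated at 0.107, 0.153 and 0.007. With so few arrays, and the deficient arrays split among themselves, this cannot show whether the numbers pair the arrays, and the labels do not say. The 95% interval of Mmp9 was the widest of the tested members.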
